A study of Mus musculus with 16 samples.

Results

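Estrogen treatment of ovariectomized mice moved a small set of femoral transcripts in the same direction in wild type mice and in mice lacking estrogen receptor alpha in osteoclasts. Tex2, which encodes a lipid-binding protein of the endoplasmic reticulum, and Egr1, a zinc finger transcription factor of the immediate early class, rose in both genotypes. Esm1, a proteoglycan secreted by endothelial cells, and Rgs2, a brake on G protein signalling, fell in both. The response was described as the mean of the estrogen effects in the 2 genotypes over all 16 arrays of the series. A gene was taken to move the same way where its difference had the same sign in wild type and in knockout. Of 12735 genes tested, 5739 (45.1%) moved the same way, 2820 (22.1%) of them higher and 2919 (22.9%) lower after estrogen in both genotypes. Only 8 of them (0.0628% of the genes tested) had an adjusted p under 0.05 for the mean effect in the fit by limma, a linear model with a variance estimate shared across genes.

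All 16 animals were ovariectomized female mice of strain C57BL/6, and each gave 1 array, unpooled, from the lower end (5 mm) of its left thigh bone. The 4 groups held 4 mice each: wild type without estrogen (vehicle), wild type 4 hours after estrogen, ERaKO without estrogen, and ERaKO 4 hours after estrogen. By their label, ERaKO mice lack estrogen receptor alpha in osteoclasts only, so that other cells of bone and marrow carry the receptor in all groups. The labels of the ERaKO mice without estrogen name no vehicle, and vehicle treatment of that group was taken from the series' description. Neither the estrogen compound and dose nor the mice's age nor the driver of the osteoclast deletion is stated in the labels.

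Estrogen acts mainly through nuclear receptors that bind DNA as dimers at estrogen response elements, or that attach to other factors such as AP-1 and Sp1. In bone, loss of estrogen at ovariectomy raises resorption, and estrogen replacement restrains osteoclasts; it also lowers B lymphopoiesis. The distal femur is a mixture of bone, growth plate cartilage, marrow and blood vessels. In such bulk tissue, fewer cells of a type and less RNA per cell cannot be told apart.

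The arrays were scaled alike, with a 2% trimmed mean signal of 500 on all 16 and median signals of 153 to 217. Replicates 1 and 2 stood apart from replicates 3 and 4: 18S ribosomal RNA gave 10839 to 32638 on the former and 473 to 7271 on the latter, and skeletal muscle transcripts were higher on the former. Spike-in controls were brightest on 3 arrays, the second replicate of each wild type group and the first knockout estrogen replicate. On those 3 the ratio of 3′ to 5′ Actb signal, which rises with RNA degradation, was 3.53 (wild type vehicle), 2.44 (wild type estrogen) and 2.07 (knockout estrogen). The counts of genes that passed and the share moving the same way are also given without these 3 arrays. Counts at an unadjusted p and counts within gene lists were made on all 16 arrays only.

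Esr1, the gene of estrogen receptor alpha, gave vehicle signals of 792, 876, 1100.2 and 1011 in wild type and 579.7, 627, 723 and 617 in knockout. After estrogen the signals were 475, 456, 434 and 664 in wild type and 753, 513, 484 and 409 in knockout. Wild type arrays separated by treatment, and knockout arrays overlapped through estrogen replicate 1. The mean difference was -0.57 ± 0.13, with an exact permutation p of 0.007716 (0.02778 adjusted over 9 genes) and a limma adjusted p of 0.150 over all genes. Some of the 9 genes were chosen from earlier results on these data, which lowers the value adjusted over them, so it is not independent support. The other probe sets of Esr1 above the filter had mean differences of 0.0081 ± 0.25 and -0.38 ± 0.20, neither of which reached an unadjusted limma p of 0.05. The probe set also reads Esr1 of cells other than osteoclasts, and where its probes lie relative to the deleted part is not stated, so it does not check the deletion.

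Promoter sequences were set beside the genes that passed, because these genes moved the same way in both genotypes. The 250 bases before the start site came from RefSeq (GRCm38.p6) for 6 of the 8 genes, with 7 promoters since Alas1 had more than 1. The Igf1 and Tex2 promoters are shown because they held the matches to the estrogen half-site and the most matches to the Sp1 GC box. Igf1 lies at chr10:87860861-87861110 on the plus strand, and capitals mark AGGTCA, the estrogen response half-site, whose first base lay at -161 from the start site. Tex2 lies at chr11:106612931-106613180 on the minus strand, and capitals mark GGGCGG, the Sp1 GC box, on either strand; 7 matches were found, of which the last 2 overlap.
Igf1: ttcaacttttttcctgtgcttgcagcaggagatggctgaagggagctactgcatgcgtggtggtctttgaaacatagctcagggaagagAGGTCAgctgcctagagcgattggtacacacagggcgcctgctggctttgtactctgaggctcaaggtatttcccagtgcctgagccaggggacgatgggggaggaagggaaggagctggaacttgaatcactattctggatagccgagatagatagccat
Tex2: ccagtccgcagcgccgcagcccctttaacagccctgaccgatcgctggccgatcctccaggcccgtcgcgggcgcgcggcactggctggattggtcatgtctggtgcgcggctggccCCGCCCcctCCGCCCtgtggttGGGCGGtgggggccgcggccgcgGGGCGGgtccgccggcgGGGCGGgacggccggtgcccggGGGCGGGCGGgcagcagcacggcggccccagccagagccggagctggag

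Both strands of every promoter were searched, and shares are given over 32851 RefSeq promoters of the same length. The full estrogen response element, a palindrome with a spacer, was in 0 of the 7 promoters and in 0.0639% of all promoters. The half-site AGGTCA was in 1 of 7, that of Igf1, and in 14% of all promoters. The GC box GGGCGG was in 3 of 7, with 7 matches in Tex2, 4 in Rgs2 and 1 in Alas1, and in 32.7% of all promoters. The AP-1 site TGACTCA (4.46% of all promoters), the cAMP element TGACGTCA (1.55%) and the E-box CACGTG (6.02%) were in 0 of 7. These matches describe letters in the window and are not binding sites.

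The comparison asked which genes differed between the 8 estrogen arrays and the 8 vehicle arrays when the effect was averaged over the genotypes. Values are differences in log2(signal + 16) with the standard error of the fit, estrogen minus vehicle, so that 1 is a doubling for a bright gene and less than the true change for a dim one. Of the 8 genes that passed, 4 were higher (0.0314% of the genes tested) and 4 were lower (0.0314%). Without adjustment, 1071 genes (8.41%) had a p under 0.05, 435 higher (3.42%) and 636 lower (4.99%). Within the genotypes, limma called 5 genes in wild type (0.0393%) and 1 in knockout (0.00785%), which was Tex2; 12.5% and 7.48% of genes had an unadjusted p under 0.05. No gene passed for the difference between the genotypes' estrogen effects, for which limma gave 1547 genes (12.1%) at an unadjusted p under 0.05. The genes with an unadjusted p under 0.05 in both genotypes numbered 153. Of these, 81 (0.636% of genes tested) moved the same way and 72 (0.565%) in opposite directions. The 81 held 34 higher genes (0.267%) and 47 lower genes (0.369%).

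The count of 8 depended on the model and on single arrays. With the replicate number as a block, 3 genes passed, Tex2, Egr1 and Esm1. Leaving out wild type estrogen replicate 1 gave 39 genes and leaving out knockout estrogen replicate 1 gave 20. Leaving out wild type estrogen replicate 4 or knockout estrogen replicate 2 gave 9 each, and leaving out any 1 of the other 12 arrays gave 1 to 4. The fit held a term for the split of replicates 1 and 2 from 3 and 4. Replicates 1 and 2 alone gave 0 genes, with 33.4% of genes moving the same way, and replicates 3 and 4 alone gave 2, with 57.9%. Dropping the 3 arrays of bright spike-in controls gave 12 genes, 11 higher and 1 lower, of which 2 were among the 8, and 54.5% of genes then moved the same way. Array quality weights gave 40 genes.

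**Figure D1:**
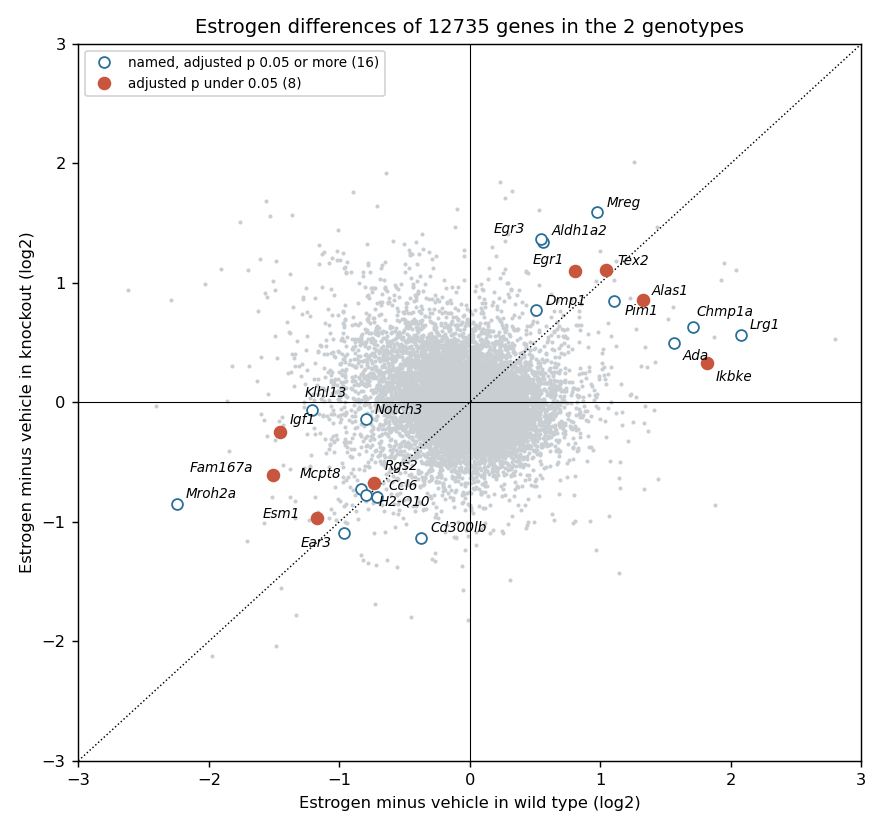
Estrogen minus vehicle in wild type (horizontal axis, log2) against the same difference in knockout (vertical axis, log2) for each of 12735 genes. Red points are the 8 genes that passed for the mean, open circles the other 16 named genes, grey points all other genes, and the dotted diagonal marks equal differences. Tex2, Egr1, Esm1 and Rgs2 lie near the diagonal, while Ikbke, Igf1 and Fam167a lie nearer the horizontal axis.

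Among the genes that rose, Tex2 (gene ID 21763) had the smallest p of all genes. Its vehicle signals were 1084, 803, 886 and 888 in wild type replicates 1 to 4 and 937, 977, 889.6 and 1082 in knockout. After estrogen they were 1988, 1631, 1796 and 2209.6 in wild type and 1617, 1873, 2745 and 2359 in knockout. Every estrogen array was above every vehicle array, in both genotypes. The mean difference was 1.08 ± 0.11 (2.11-fold; limma adjusted p = 0.000306), with 1.04 ± 0.16 in wild type and 1.11 ± 0.16 in knockout. The exact two-sided permutation test within genotype and replicate set gave p = 0.001543, the smallest that its 1296 arrangements allow (0.01389 adjusted over the 9 genes tested this way). Because some of these 9 genes were chosen from earlier results on these data, the permutation test is not independent support. Tex2 passed in each of the 16 fits that left out 1 array.

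Egr1 (gene ID 13653) couples growth factor and mechanical signals to transcription. Its vehicle signals were 1621, 1733, 1463 and 1239 in wild type and 1186, 1604, 1356 and 1056 in knockout, against 2350.0, 2326, 3826 and 2343 and 3486, 3406, 2310.5 and 2155 after estrogen. The groups did not overlap, although wild type estrogen replicate 3 stood well above its group. The mean difference was 0.96 ± 0.14 (1.94-fold; limma adjusted p = 0.0156). It was 0.81 in wild type and 1.10 in knockout, and 15 of the 16 fits without 1 array kept the call, the exception being the fit without knockout vehicle replicate 4.

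Ikbke (gene ID 56489) encodes a kinase of the innate immune pathways that lead to NF-kappaB and interferon regulatory factors. Vehicle signals were 127, 94.0, 237 and 333 in wild type and 262, 282, 252 and 514 in knockout, and estrogen signals were 494, 739, 852 and 623 and 298, 319.9, 625 and 425. Wild type arrays separated by treatment, while the knockout arrays overlapped. The share of all genes that separate within 1 genotype was not counted, here or for other genes so described. Most of these genes were picked by small p on the same arrays, so such separation is not further support. The mean difference of 1.07 ± 0.18 (limma adjusted p = 0.0438) joined 1.81 ± 0.26 in wild type to 0.33 ± 0.26 in knockout. The difference between genotypes had an unadjusted limma p of 0.000801 and an adjusted p of 0.275. Ikbke passed in 4 of the 16 fits without 1 array, when wild type vehicle 4, wild type estrogen 1 or 4, or knockout estrogen 1 was left out.

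Alas1 (gene ID 11655) encodes the first enzyme of heme synthesis outside the red cell lineage. Its signal ran from 1538 to 2606 (median 2079) over the 8 vehicle arrays and from 2053 to 10388 (median 4510.3) over the 8 estrogen arrays. The ranges overlapped only through knockout estrogen replicate 1, the lowest estrogen array. The mean difference was 1.09 ± 0.19 (2.13-fold; limma adjusted p = 0.049), 1.32 in wild type and 0.86 in knockout. It passed in 3 of the 16 fits without 1 array, those without wild type estrogen replicate 1 or 4 or knockout estrogen replicate 1.

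Among the genes that fell, Esm1 (gene ID 71690, endocan) marks endothelial tip cells. Its vehicle signals were 968, 672, 998 and 919 in wild type and 1002, 668, 1090.0 and 899 in knockout, against 574, 314, 232 and 503 and 381, 386, 546 and 518 after estrogen. No estrogen array reached the lowest vehicle array. The mean difference was -1.07 ± 0.17 (2.10-fold lower; limma adjusted p = 0.0397), -1.17 in wild type and -0.97 in knockout. It passed in 7 of the 16 fits without 1 array: those without wild type vehicle 2, wild type estrogen 1, 3 or 4, knockout vehicle 2, or knockout estrogen 1 or 2. Other endothelial genes did not pass: of 20 tested, 2 had an unadjusted limma p under 0.05, Esm1 and Vwf (-0.25 ± 0.09), both lower, and the list's median was 0.00.

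Rgs2 (gene ID 19735) shortens the signal of G protein coupled receptors and is an early target of parathyroid hormone in bone cells. Its vehicle signals were 3915, 4929.6, 2164 and 2107 in wild type and 4094, 3172, 2382 and 2361 in knockout, and its estrogen signals were 2828, 2428, 1333 and 1234 and 2139.9, 1885, 1656 and 1667. Replicates 1 and 2 were brighter than replicates 3 and 4 in every group, and within each replicate set of each genotype both estrogen arrays were below both vehicle arrays. The mean difference was -0.70 ± 0.12 (1.63-fold lower; limma adjusted p = 0.0397), and the genotypes differed by 0.06 ± 0.23. It passed in 5 of the 16 fits without 1 array (wild type estrogen 1, knockout vehicle 2, or knockout estrogen 1, 2 or 4 left out) and did not pass without the term for the replicate set.

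Fam167a (gene ID 219148) ran from 193 to 494 (median 327) on vehicle arrays and from 74.6 to 335 (median 155) on estrogen arrays. The groups separated in wild type and overlapped in knockout. Its mean difference was -1.06 ± 0.18 (2.09-fold lower; limma adjusted p = 0.0438), with -1.51 in wild type and -0.61 in knockout, and an unadjusted p of 0.0242 (adjusted 0.355) for the difference between them. It passed in 4 of the 16 fits without 1 array, when wild type estrogen 1 or 4 or knockout estrogen 1 or 2 was left out.

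Igf1 (gene ID 16000) encodes insulin-like growth factor 1, a growth factor of bone and many other tissues. Its vehicle signals were 2029, 2897, 1402 and 1434 in wild type and 1305, 1509, 1463 and 1432 in knockout, and its estrogen signals were 918, 848, 389 and 651 and 1892, 1639, 882 and 758. In wild type every estrogen array was below every vehicle array. In knockout, estrogen replicates 1 and 2 were above all 4 vehicle arrays and replicates 3 and 4 were below them. The mean difference of -0.85 ± 0.15 (1.80-fold lower; limma adjusted p = 0.049; exact permutation p = 0.009259) was -1.45 ± 0.21 in wild type and -0.24 ± 0.21 in knockout. The difference between genotypes had an unadjusted limma p of 0.000895 and an adjusted p of 0.275. The sign of Igf1 in knockout thus followed the replicate set, and Igf1 passed in 4 of the 16 fits without 1 array, when wild type estrogen 1 or 4, knockout vehicle 1 or knockout estrogen 1 was left out.

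Other probe sets of the same genes gave a further reading on the same arrays. For 4 of the 8 genes (Alas1, Igf1, Rgs2 and Tex2), 7 other probe sets lay above the filter on low signal. For the mean of both genotypes, all 7 moved in the direction of the probe set used, each with an unadjusted limma p under 0.05. Those of Igf1 had -0.95, -1.23 and -0.63 in wild type and -0.04, -0.15 and -0.05 in knockout. Those of Alas1, Rgs2 and Tex2 had the direction of the mean in both genotypes.

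**Figure D2:**
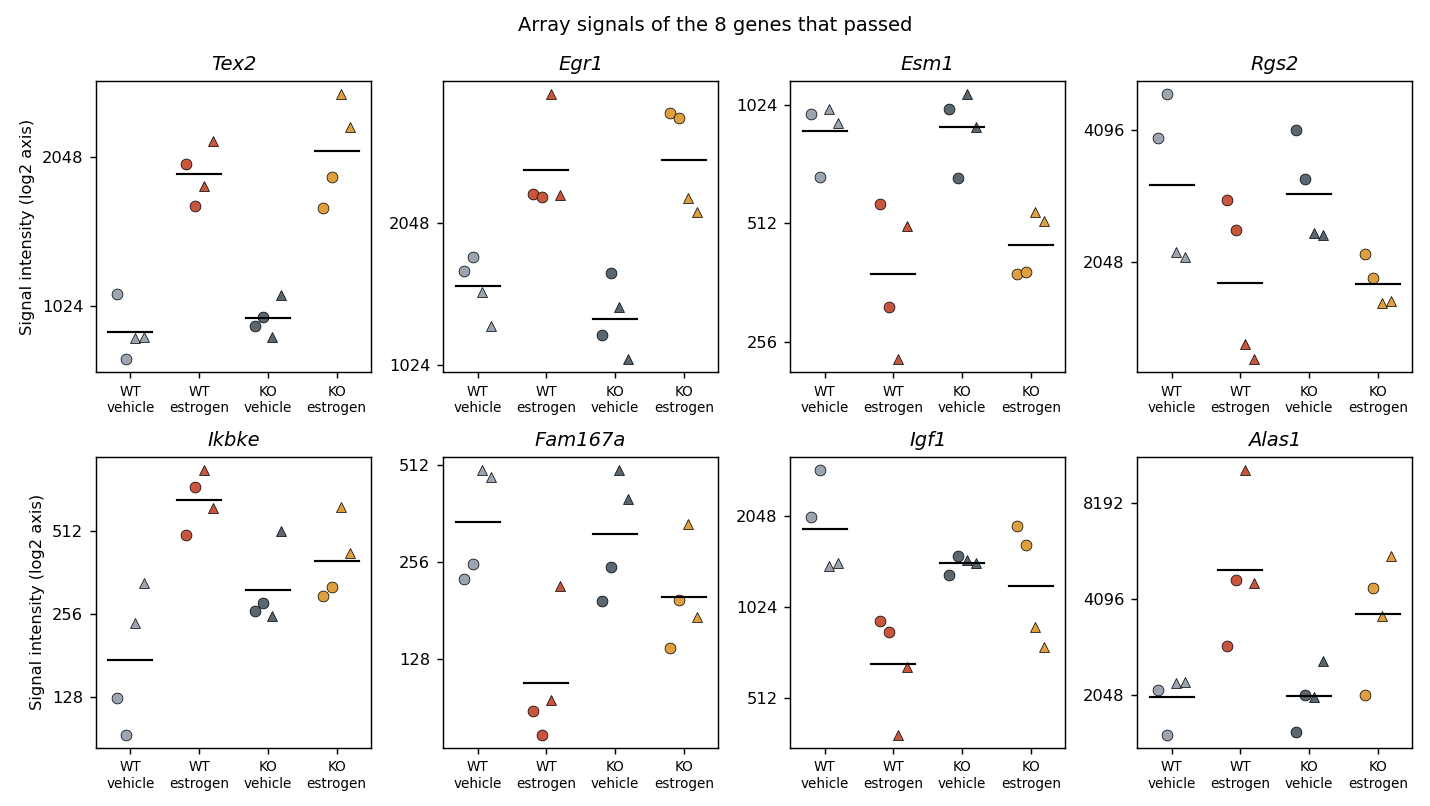
Signal intensity (vertical axis, log2 scale) on each array for the 8 genes that passed, by genotype and treatment along the horizontal axis. Circles are replicates 1 and 2, triangles replicates 3 and 4, and bars geometric means of 4 arrays. Tex2, Egr1 and Esm1 separate all estrogen arrays from all vehicle arrays, while Igf1 in knockout splits by replicate set.

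The rule for naming genes took the 24 of smallest p that moved the same way, 12 higher and 12 lower, so 16 of them had not passed. Their limma adjusted p values for the mean ran from 0.0554 for Mcpt8 to 0.150 for Ccl6 and Cd300lb. For 10 of the 24 genes, 14 other probe sets lay above the filter, and for the mean of both genotypes all 14 had the direction of the probe set used. That of Egr3 had opposite signs in the genotypes, and that of Ccl6 had -0.04 in wild type and -0.51 in knockout. Of those 14, 10 had an unadjusted p under 0.05.

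Several of these genes belong to signalling. Pim1, a serine/threonine kinase induced by cytokine receptors, ran from 2201 to 3395 (median 2817) on vehicle arrays and from 3567 to 10912 (median 4826) on estrogen arrays, with no overlap. Its difference was 0.98 ± 0.18 (limma adjusted p = 0.0744). Egr3, a relative of Egr1, ran from 152 to 325 (median 282) and from 218 to 704 (median 576), a difference of 0.96 ± 0.20 (adjusted p = 0.111). The genotypes gave 0.54 and 1.37 for Egr3, wild type first. The other Egr3 probe set had 0.21 ± 0.25 for the mean, with -0.02 in wild type and 0.43 in knockout. Notch3, a receptor of vascular mural cells, had -0.47 ± 0.10, with -0.80 in wild type and -0.14 in knockout (unadjusted limma p of the difference between genotypes 0.00448, adjusted 0.285).

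Another group marks granulocytes and other marrow cells. Mcpt8, a basophil protease, ran from 1202 to 1994 (median 1546) on vehicle arrays and from 661 to 1362 (median 869) on estrogen arrays, a difference of -0.78 ± 0.14. Ear3, an eosinophil ribonuclease, had -1.03 ± 0.21 (limma adjusted p = 0.111), and Ccl6, a myeloid chemokine, had -0.75 ± 0.16. Cd300lb, an activating receptor of myeloid cells, had -0.75 ± 0.17, -0.37 in wild type and -1.13 in knockout. Lrg1, a secreted glycoprotein of neutrophil granules and of inflamed endothelium, had 1.32 ± 0.27. Its wild type estrogen signals of 7079.9, 22977, 9859 and 5551 all lay above the wild type vehicle signals of 2332, 1496, 2501 and 3142, and its knockout arrays overlapped.

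The remaining leading genes had varied roles. Dmp1, an osteocyte protein that regulates mineralization and phosphate, was among the brightest. It ran from 9943 to 15214 (median 12271) on vehicle arrays and from 12900.0 to 23864 (median 20205) on estrogen arrays, a difference of 0.64 ± 0.13 (limma adjusted p = 0.0908). In each genotype all 4 estrogen arrays exceeded all 4 vehicle arrays, although knockout estrogen replicate 1 exceeded the highest knockout vehicle array by little. Aldh1a2, which makes retinoic acid, had 0.95 ± 0.19. Its mean vehicle signal was 563 ± 64.5 (SD, n = 4) in wild type and 158 ± 56.9 in knockout, a difference that was not tested. Ada, a purine enzyme, had 1.03 ± 0.21, with 1.57 in wild type and 0.49 in knockout (unadjusted limma p of the difference between genotypes 0.0184, adjusted 0.335). Mreg, which acts in melanosome and lysosome transport, had 1.29 ± 0.25. In wild type, Mreg had -0.05 from replicates 1 and 2 and 2.00 from replicates 3 and 4, and in knockout 1.82 and 1.36. Chmp1a, a membrane remodelling subunit, had 1.17 ± 0.23, with 1.71 in wild type and 0.63 in knockout. H2-Q10, a secreted histocompatibility protein, had -0.78 ± 0.16, with -0.29 from replicates 1 and 2 and -1.27 from replicates 3 and 4.

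The last 2 of the 24 had weaker support in knockout or low signal. Klhl13, an adaptor of a ubiquitin ligase, had -0.64 ± 0.13, made up of -1.21 in wild type and -0.06 in knockout, so that its place among genes moving the same way rests on a knockout difference smaller than its standard error of 0.19. Mroh2a had the largest difference of the 24, -1.55 ± 0.32, at signals of 89.0 to 456 (median 233) on vehicle arrays and 11.9 to 229 (median 79.4) on estrogen arrays. One further gene, Lipg, an endothelial lipase, separated all 8 estrogen from all 8 vehicle arrays; with Tex2, Egr1, Esm1 and Pim1 it made 5 such genes (0.0393% of those tested), 4 higher (0.0314%) and 1 lower (0.00785%). Lipg had a difference of 1.48 (limma adjusted p = 0.150) and is named here after its values were seen.

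**Figure D3:**
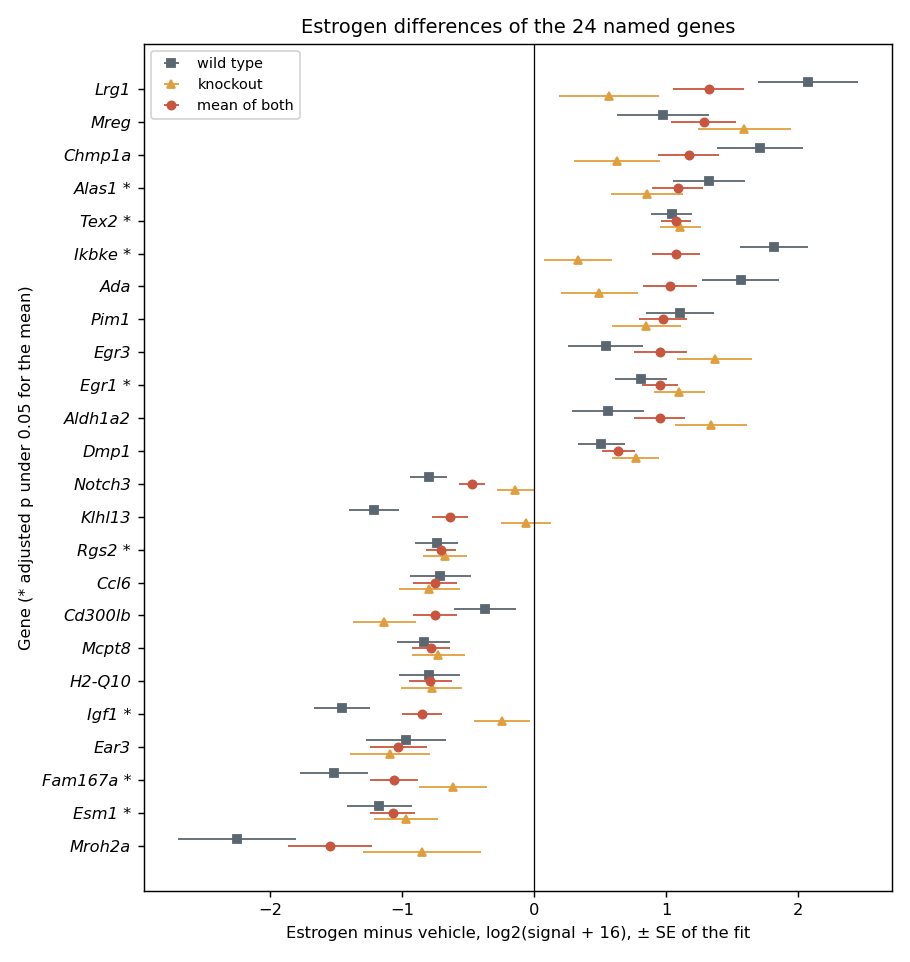
Estrogen minus vehicle (horizontal axis, log2(signal + 16), bars ± SE of the fit) for the 24 named genes, with squares for wild type, triangles for knockout and circles for the mean of both. Asterisks mark the 8 genes that passed. Tex2, Rgs2, H2-Q10, Ear3 and Mcpt8 show nearly equal differences in both genotypes, and Klhl13 shows a knockout difference of -0.06.

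Esr2, which encodes estrogen receptor beta, was under the filter on low signal at 13.6 to 132 (median 61.4) on vehicle arrays, with an exact permutation p of 0.2963. Of 18 tested genes on the list of estrogen targets, 0 passed in limma, 1 was higher and 1 lower at an unadjusted p under 0.05, and the median was 0.11 against -0.01 for all genes. Inhbb had the largest difference of the list, 0.52 ± 0.29, which joined -0.37 in wild type to 1.41 in knockout. The difference between genotypes had an unadjusted limma p of 0.00628 (adjusted 0.297) for Inhbb. Xbp1, a secretory pathway factor, had 0.41 ± 0.12 and Ccnd1, cyclin D1, had -0.35 ± 0.13. Fas ligand is named in the title of the series. Its probe set of highest signal was under the filter, at 42.2 to 142 (median 80.3) on vehicle arrays and 36.7 to 245 (median 102) on estrogen arrays. The difference was 0.21 ± 0.30, 0.25 in wild type and 0.17 in knockout (exact permutation p = 0.5386). The other Fasl probe set, also under the filter, had 0.30 for the mean, 0.72 in wild type and -0.12 in knockout. At these signals no shared change of Fasl was detected, and how large a change could have been missed was not computed. Fas, its receptor, had -0.03 ± 0.27 (exact permutation p = 0.9198).

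The fixed genes of bone resorption had mean differences smaller than their standard errors, which for Ctsk and Tnfrsf11b joined opposite signs in the genotypes. Ctsk, the collagenase of osteoclasts, had -0.03 ± 0.15 (exact permutation p = 0.8858), with -0.38 ± 0.21 in wild type and 0.33 ± 0.21 in knockout. The difference between genotypes had an unadjusted limma p of 0.030 (adjusted 0.370) for Ctsk. Tnfsf11, the osteoclast cytokine RANKL, had 0.12 ± 0.21 (p = 0.5571 by the same exact test), with 0.09 in wild type and 0.14 in knockout. Tnfrsf11b, its decoy receptor, had 0.15 ± 0.22 (exact permutation p = 0.5741), with -0.34 ± 0.31 in wild type and 0.65 ± 0.31 in knockout. For Tnfrsf11b the difference between genotypes had an unadjusted limma p of 0.0357 (adjusted 0.380). Of 13 osteoclast genes tested, 1 had an unadjusted limma p under 0.05, Calcr, the calcitonin receptor, at 0.62 ± 0.23, and the median was 0.10. The tissue held osteoclast, osteoblast and osteocyte RNA in every group: mean vehicle signals in wild type were 8729 ± 3408 (SD, n = 4) for Ctsk, 1337 ± 696 for Sp7, a factor of osteoblast commitment, and 13513 ± 1520.3 for Dmp1.

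Signalling genes were read through lists of textbook members, none of which gives an independent test of direction. For this and all later lists, the shares over all genes were 3.42% higher and 4.99% lower at an unadjusted limma p under 0.05. By sign, 22.1% of all genes were higher and 22.9% lower in both genotypes. In the list of immediate early factors, 19 were tested and 1, Egr1, passed. At an unadjusted limma p under 0.05, 5 of the 19 were higher and 2 lower, and the median was 0.19. Ccn1, a matricellular protein, had 1.06 ± 0.24, Ier3 0.74 ± 0.22 and Nr4a1 0.51 ± 0.15, while Btg2, an antiproliferative factor, had -0.66 ± 0.15 and Nr4a2 -0.50 ± 0.14. The list thus held members on both sides.

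Of 12 feedback inhibitors of ERK and G protein signalling tested, Rgs2 passed, 4 were lower and 0 higher at an unadjusted limma p under 0.05, against 4.99% lower over all genes, and the median was -0.08. By sign, 5 were lower in both genotypes, 2 were higher in both and 5 had opposite signs. Dusp5, a nuclear ERK phosphatase, had -1.15 ± 0.35, Dusp6 -0.43 ± 0.15 and Dusp2 -0.37 ± 0.16. In the NF-kappaB list of 14, Ikbke passed, 4 were higher and 1 lower, with a median of 0.09. Bcl3 had 0.74 ± 0.31, Birc3 0.39 ± 0.13, the inhibitor Nfkbia 0.34 ± 0.15 and the deubiquitinase Tnfaip3 -0.27 ± 0.12.

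Receptors of the gp130 family and the SOCS inhibitors gave 3 higher and 1 lower of 12 at an unadjusted limma p under 0.05, and 0 passed. Osmr and Lifr, which bind oncostatin M and leukemia inhibitory factor, had 0.63 ± 0.15 and 0.50 ± 0.13. Socs3, the feedback inhibitor of gp130, had 0.82 ± 0.24, with replicate 2 at 3879.9 in wild type and 4029 in knockout after estrogen, against a median of 1291 over the 8 estrogen arrays. Of 7 inflammatory cytokine genes tested, Tnf had 1.05 ± 0.30 and Il1b -0.97 ± 0.29, with 0 passed. Tnf was dim, at 31.8 to 261 (median 108) on vehicle arrays. In wild type, Il1b had 0.69 from replicates 1 and 2 and -1.81 from replicates 3 and 4. In knockout it had -1.07 and -1.69. In the IGF axis, Igf1 passed among 13 tested, 2 were higher and 3 lower. Its binding proteins differed: Igfbp3 had 0.57 ± 0.26, while Igfbp5 had -1.34 in wild type and 0.30 in knockout.

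Targets of the glucocorticoid receptor were higher as a list. Of 16 tested, 0 passed, 8 were higher and 0 lower at an unadjusted limma p under 0.05, against 3.42% and 4.99% of all genes. In both genotypes 14 of 16 were higher, and the median was 0.50 for the mean, 0.29 in wild type and 0.34 in knockout. Mt1 and Mt2, metal-binding metallothioneins, had 0.76 ± 0.19 and 0.73 ± 0.20. Fkbp5, a cochaperone of the glucocorticoid receptor, had 0.67 ± 0.16, and Pdk4, a switch of glucose oxidation, had 0.77 ± 0.40. In knockout, Pdk4 had 1.88 from replicates 1 and 2 and -0.07 from replicates 3 and 4. Its highest signal, 10935, was on knockout estrogen replicate 1, against at most 2353 on vehicle arrays. Mt1 signals ran from 4306 to 8821 (median 5375) on vehicle arrays and from 6360.5 to 17279 (median 9577) on estrogen arrays. The mean list level overlapped between treatments, at 10.48 to 11.04 on vehicle arrays and 10.57 to 11.84 on estrogen arrays in log2(signal + 16). Replicates 1 and 2 alone gave a median of 0.52, and replicates 3 and 4 gave 0.42.

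Genes of B cell precursors were lower in both genotypes. Of 11 tested, 0 passed, 10 were lower and 0 higher at an unadjusted limma p under 0.05, against 4.99% and 3.42% of all genes. In both genotypes 10 of 11 were lower, against 22.9% of all genes. The median was -0.81 for the mean, -0.94 in wild type and -0.73 in knockout. Vpreb1 and Igll1, which form the surrogate light chain of the pre-B cell receptor, had -2.05 ± 0.64 (limma adjusted p = 0.331) and -1.76 ± 0.42 (adjusted p = 0.155). Dntt and Rag1, enzymes of receptor gene assembly, had -1.56 ± 0.39 and -1.50 ± 0.42, and Il7r, the receptor of the main growth factor of these cells in mice, had -0.65 ± 0.21.

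The arrays within a group differed widely for these genes. Vpreb1 signals were 4071, 3249, 4112 and 3346 in wild type vehicle and 6306, 2853, 33.1 and 853 in wild type estrogen. In knockout they were 6964, 2438, 3898 and 1577 for vehicle and 439, 2312, 1062 and 242 for estrogen. Wild type estrogen replicate 1 was higher than every wild type vehicle array, and the other 3 were lower. Without that array, 39 genes passed for the mean, with Igll1, Dntt, the T cell gene Cd3d and the plasma cell gene Jchain among them. The mean list level ran from 9.30 to 11.01 on vehicle arrays and from 7.86 to 10.44 on estrogen arrays. Replicates 1 and 2 alone gave a list median of -0.72, and replicates 3 and 4 gave -1.07.

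Other lymphoid lists had fewer low members. Of 10 genes of mature B and plasma cells, 3 were lower and 0 higher at an unadjusted limma p under 0.05, with Irf4 at -1.44 ± 0.42 and Jchain, the joining chain of antibodies, at -0.73 ± 0.17. Of 13 T and natural killer cell genes, 3 were lower and 1 higher, with a median of -0.32, and Cd3d had -1.08 ± 0.30. All 8 megakaryocyte genes were lower in both genotypes, against 22.9% of all genes, by small amounts (median -0.13), with Gp6, a platelet collagen receptor, at -0.47 ± 0.14. No gene of these lists passed.

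Genes of granulocyte precursors were higher, with the larger median in wild type, a difference that was not tested for the list. Of 7 tested, 5 were higher and 0 lower at an unadjusted limma p under 0.05, against 3.42% and 4.99% of all genes, and 0 passed. The median was 0.47 for the mean, 0.97 in wild type and 0.12 in knockout. Ms4a3 had 0.88 ± 0.20, with 1.42 in wild type and 0.34 in knockout. Ctsg and Elane, proteases of primary granules, had 0.83 ± 0.21 and 0.47 ± 0.19. On wild type arrays the mean list level was 12.05 to 12.52 with vehicle and 12.92 to 13.67 with estrogen, without overlap. On knockout arrays it was 12.19 to 12.75 and 11.69 to 13.35, with overlap. Of 15 late neutrophil genes, Il1r2, a decoy interleukin 1 receptor, had 1.21 ± 0.29 and Lrg1 1.32 ± 0.27, while the median was 0.15.

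Interferon response genes were lower for the mean, from vehicle levels that did not overlap between the genotypes. Of 15 tested, 10 were lower and 0 higher at an unadjusted limma p under 0.05, against 4.99% and 3.42% of all genes, and 0 passed. In both genotypes 11 were lower, against 22.9% of all genes. The median was -0.62 for the mean, -0.11 in wild type and -0.93 in knockout. These levels were not tested between genotypes. Mean list levels were 9.63 to 10.61 on knockout vehicle arrays, 9.16 to 9.52 in wild type vehicle, 8.72 to 9.32 in wild type estrogen and 8.87 to 9.68 in knockout estrogen, so the ranges of the treatments overlapped in each genotype. Rtp4 had -1.04 ± 0.28, with -0.72 in wild type and -1.36 in knockout. Ifit3, an antiviral protein, had -0.99 ± 0.27, with -1.04 in wild type and -0.93 in knockout. The knockout value of Ifit3 joined opposite signs, 0.28 from replicates 1 and 2 and -2.14 from replicates 3 and 4. Cxcl10, a chemokine, had -0.02 in wild type and -1.82 in knockout. Taken alone, replicates 1 and 2 gave a list median of -0.19, against -0.89 from replicates 3 and 4.

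**Figure D4:**
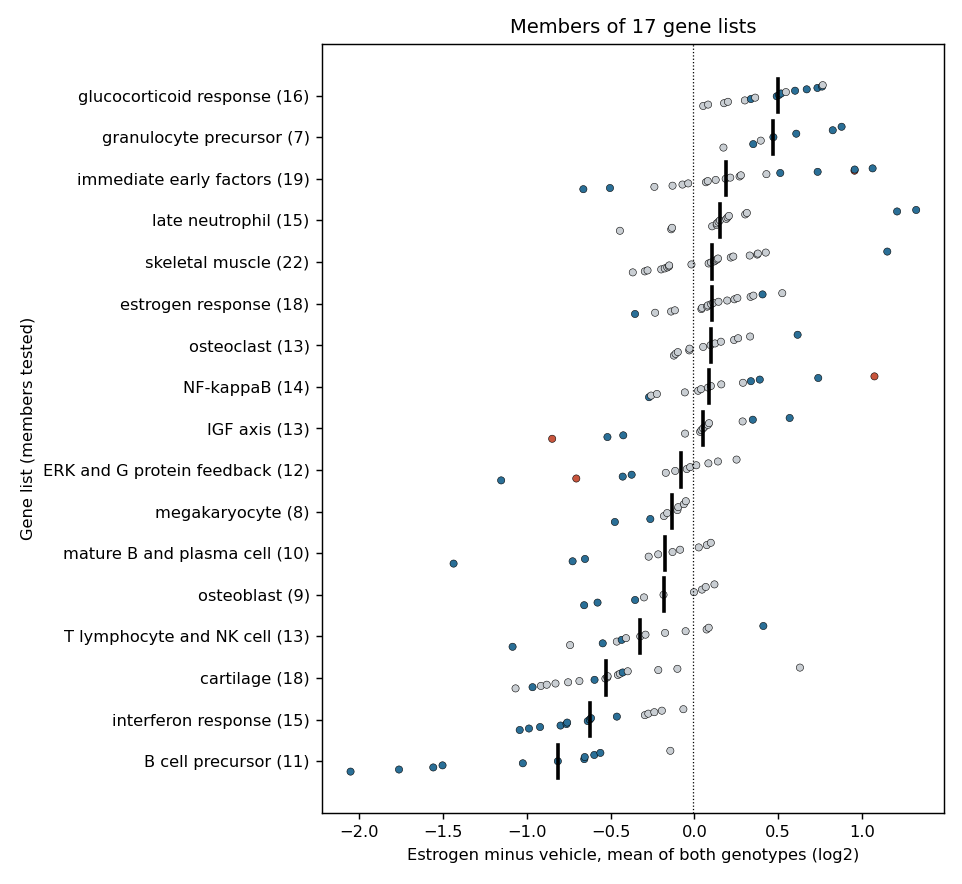
Estrogen minus vehicle, mean of both genotypes (horizontal axis, log2), for the tested members of 17 gene lists, with the number tested beside each name on the vertical axis. Red points passed after adjustment, blue points had an unadjusted p under 0.05, grey points had neither, black bars are list medians and the dotted line is the median of all genes. B cell precursor genes have the lowest median, -0.81, and glucocorticoid response genes the highest of the lists drawn, 0.50.

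Skeletal tissue lists showed where the samples themselves differed. Of 18 cartilage genes, 15 were lower in both genotypes, 3 were lower and 0 higher at an unadjusted limma p under 0.05, and the median was -0.52. Over all genes these shares were 22.9%, 4.99% and 3.42%. By replicate set the median was -0.27 (1 and 2) and -0.90 (3 and 4). Knockout estrogen replicate 1, an array of bright spike-in controls, had a mean list level of 8.61, against 11.87, 11.47 and 10.04 on the other knockout estrogen arrays and 10.77 to 11.20 on knockout vehicle arrays. Without that array the cartilage list median was -0.29. Epyc, a cartilage proteoglycan, had -0.97 ± 0.35, and Col9a3, a collagen chain, ran from 755 to 3764 (median 2417) on vehicle arrays and from 66.3 to 5771 (median 1010.5) on estrogen arrays. Its lowest estrogen value was on that same array. Of 9 osteoblast genes, 3 were lower and 0 higher, with Sp7 at -0.58 ± 0.21 and Ifitm5, a protein of mineralizing osteoblasts, at -0.66 ± 0.25.

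Skeletal muscle genes did not move the same way. Of 22 tested, 20 had opposite signs in the genotypes, with medians of -0.88 in wild type and 1.12 in knockout. Their mean list level ran between 11.76 and 14.54 on arrays of replicates 1 and 2, and between 7.71 and 10.12 on the others. Genes of fibrillar matrix gave 16 of 17 opposite signs, with medians of -0.72 and 0.30. The part of muscle and cartilage RNA in the results above was not tested for single genes. In a fit with the muscle list level in place of the replicate set, 6 genes passed for the mean. These were Tex2, Egr1, Esm1, Ikbke, Alas1 and Igf1, while Rgs2 and Fam167a did not pass. The muscle level itself split by replicate set, so this fit cannot separate muscle content from the set.

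**Figure D5:**
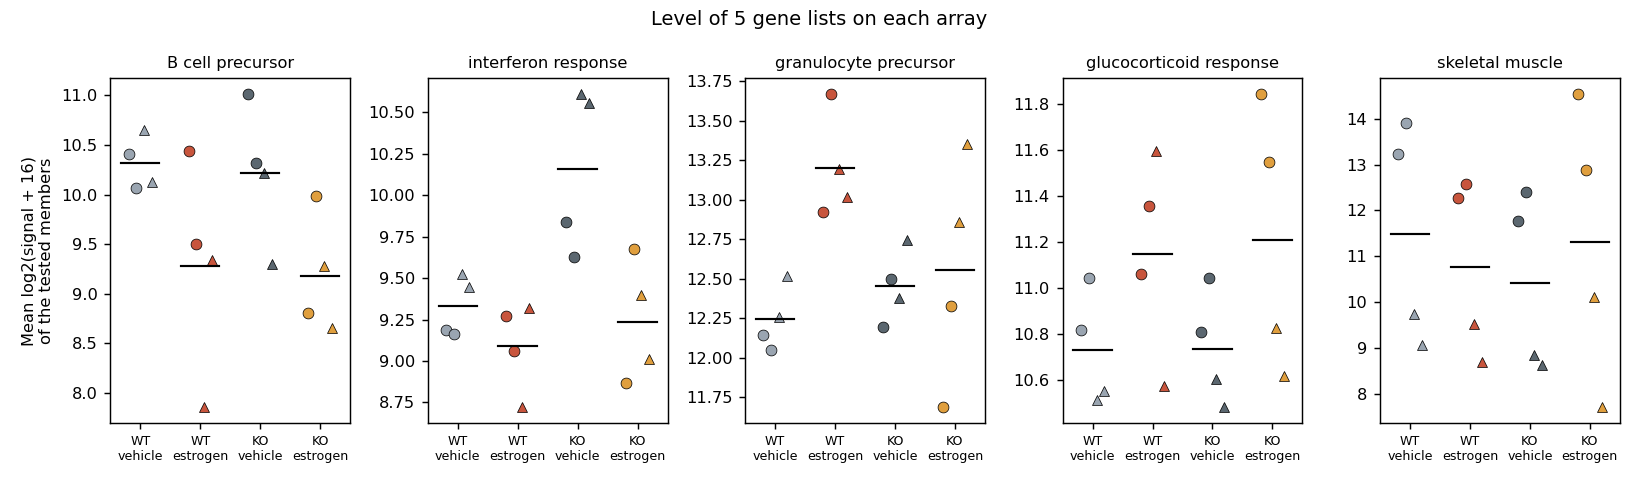
Mean log2(signal + 16) of the tested members of 5 gene lists (vertical axis) on each array, by genotype and treatment along the horizontal axis. Circles are replicates 1 and 2, triangles replicates 3 and 4 and bars group means. Skeletal muscle levels split by replicate set (11.76 to 14.54 against 7.71 to 10.12), and interferon levels run from 9.63 to 10.61 on knockout vehicle arrays and from 8.87 to 9.68 on knockout estrogen arrays.

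Other lists had few members past the unadjusted threshold. None of 23 cell cycle genes and none of 12 erythroid genes had an unadjusted limma p under 0.05. Of 15 genes of cholesterol synthesis, 3 were lower, with Insig1 at -0.44 ± 0.12 and Cyp51 at -0.43 ± 0.14. Of 13 Notch pathway genes, 8 were lower in both genotypes and 2 of them had an unadjusted p under 0.05, Notch3 and its target Hey1 (-0.78 ± 0.29). Of 19 Wnt pathway genes, 4 were lower and 0 higher, with Rspo3, a Wnt agonist, at -0.45 ± 0.19. Rspo3 had -0.89 from replicates 1 and 2 and -0.01 from replicates 3 and 4. Nkd2, of the same list, had -0.46 ± 0.22, with -1.01 in wild type and 0.09 in knockout. Of 17 circadian clock genes, 14 had opposite signs in the genotypes, and Dbp had -1.54 in wild type and 0.07 in knockout.

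In the remaining lists, which cover nuclear receptors, RANKL and M-CSF, TGF-beta and BMP, apoptosis, chaperones, angiogenic factors, proteases, osteocytes, adipocytes and monocytes, 0 genes passed in limma. Cd14, a lipopolysaccharide coreceptor of monocytes, ran from 372 to 622 (median 445) on vehicle arrays and from 537 to 1365 (median 700.1) on estrogen arrays (0.71 ± 0.18; limma adjusted p = 0.165). Tgfb3, a TGF-beta ligand, had -0.04 in wild type and 1.23 in knockout. Dnajb1, a cochaperone of the heat shock response, had -0.43 ± 0.12. Hsph1, another, had -0.25 ± 0.17, which joined -0.54 in wild type to 0.03 in knockout. Hbegf, a ligand of the epidermal growth factor receptor, had 0.76 ± 0.27, and Vegfc, a lymphatic growth factor, had -0.47 ± 0.20. Adamts9, a matrix protease, had -0.53 ± 0.17, and Vdr, the vitamin D receptor, had 0.42 ± 0.16. Bcl2l11, a proapoptotic protein, had 0.35 ± 0.15. Mepe, a matrix protein of osteocytes, had 0.26 ± 0.13, which joined -0.02 in wild type to 0.54 in knockout.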

How the data were processed

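Total RNA of 16 femurs was hybridised to 1-colour Affymetrix mouse arrays. The authors' deposited values are signal intensity per probe set, made with GCOS per the submitters' processing notes; scaling to a 2% trimmed mean of 500 was read from the values. The array held 45101 probe sets, of which 64 were controls, 34958 had 1 gene symbol, 932 several and 9160 none; 34754 matched RefSeq by gene ID. Each of 18193 genes was read by its probe set of highest mean signal, and the lowest 30% of genes (mean signal under 121.294) were left out, leaving 12735.

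Values of log2(signal + 16) were fitted with limma 3.58.1 (R 4.3.3), with 1 mean per genotype and treatment, a term for replicates 1 and 2 against 3 and 4, a variance trend and 11 residual degrees of freedom. The contrast was the mean of the 2 genotypes' estrogen differences, with two-sided p-values adjusted by Benjamini-Hochberg over all 12735 genes. For 9 fixed genes, labels were permuted exactly within genotype and replicate set. These were genes of the series title, of bone resorption and of earlier results on these data. Their permutation p-values are therefore not independent of those earlier results. The number of arrays limits the precision.

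Replicate numbers come from the labels. Deviations from group means of same-numbered arrays correlated at 0.19 to 0.60 (24 pairs, median 0.32), so by rule the numbers were taken to pair the arrays. That pairing entered only the alternative fit with the replicate number as a block, in which 3 genes passed. The main fit and the permutations used the replicate set. Arrays of another number in the same set correlated at 0.049 to 0.617 (24 pairs, median 0.37), and 9 of 16 arrays correlated best with their own number, so the numbers did not stand apart from the sets.

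Named genes were the 24 of smallest p that moved the same way, since fewer than 10 passed, the fixed genes and up to 3 called or 1 or 2 largest members of each of 37 lists (572 of 611 entries on the array, 517 tested). The members and lists were chosen with earlier results of these data known. Other list members named were chosen after their values were seen.
Alternatives changed the set term, replicate block, pseudocount, filter, scaling, probe sets, array weights, variance trend and arrays included; a muscle covariate was added after seeing the data.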

Additional observations from a re-analysis of the deposited data

Results flagged for a closer look

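Among 364 groups of 4 arrays (the named genes in each group), 17 (4.67%) had 1 array far from the other 3 by Dixon's criterion, which flags about 1 group in 20 by chance. Of the genes that passed, Egr1 stood at 3825.9 on wild type estrogen replicate 3, Ikbke at 514.19 on knockout vehicle replicate 4 and Alas1 at 1538.3 on wild type vehicle replicate 2. Among the other 16 leading genes, Dmp1 was low at 16328 on wild type estrogen replicate 2, Egr3 stood at 351.59 on knockout estrogen replicate 2, and Klhl13 was low at 397.02 on wild type estrogen replicate 3 and at 380.59 on knockout estrogen replicate 4. Wild type estrogen replicate 3 carried 4 of the 17, more than any other array; the others were Bcl2l11 at 5136.1 and Klf1 at 520.64. On the remaining vehicle arrays, Inhbb stood at 414.43 (wild type 4), Dnajb1 at 1493 (wild type 1), Bak1 at 1197.4 (knockout 2), Grem1 at 434.25 (knockout 3) and Col9a3 at 1497 (knockout 4). On the remaining estrogen arrays, all from knockout mice, Socs3 stood at 4028.8 (replicate 2), Cdc6 at 696.08 (replicate 1) and Mepe at 1294.2 (replicate 3).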

How the results depend on the processing

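Tex2 passed under 29 of 30 alternatives, Egr1 under 26, Esm1 under 16, Rgs2 under 11, Ikbke under 10, Fam167a under 9 of 29, and Igf1 and Alas1 under 8 each, and all 8 kept their sign in every one. The count of genes passed for the mean (8; 4 higher, 4 lower) became 2 (2 and 0) without the set term, 3 (2 and 1) with the replicate block, 4 (2 and 2) with no filter, 40 (22 and 18) with array weights, 1 (1 and 0) without the variance trend, 12 (11 and 1) on dropping the 3 arrays with bright spike-ins, 0 (0 and 0) within replicates 1 and 2 and 2 (1 and 1) within replicates 3 and 4. With the muscle covariate, 2 of its 6 genes were lower. The counts in wild type (5) and knockout (1) both became 0 without the set term, with the replicate block and within either set. Wild type gave 0 without the 3 arrays and 24 with the muscle covariate; knockout gave 15 with weights, 0 without the trend and 2 without the 3 arrays. The count for the difference between genotypes (0) became 5 within replicates 1 and 2. Without 1 array at a time, the ranges were 1 to 39 for the mean (1 to 17 higher, 0 to 22 lower), 0 to 79 in wild type, 0 to 4 in knockout and 0 to 44 for the difference. The replicate block ended the calls of Rgs2, Ikbke, Fam167a, Igf1 and Alas1 for the mean and changed no other call of a named gene for it. The cause was not tested.

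Genes near 0 changed sign. With the mean of all probe sets, Tnfsf11 was -0.10 and Tnfrsf11b -0.0288. Ctsk was 0.10 with weights, 0.16 without the 3 arrays (0.23 as the plain mean difference of the permutation test) and 0.0185 within replicates 3 and 4, where Tnfrsf11b was -0.0456 and Inhbb -0.0559. Within replicates 1 and 2, Fas was 0.25, Nkd2 0.0120, Aspn 0.25 and Pck1 -0.0781. Without 1 array at a time, limma's value ranged from -0.180 to 0.101 for Fas, -0.113 to 0.0717 for Ctsk and -0.0155 to 0.204 for Tnfsf11, and the plain difference from -0.227 to 0.149 for Fas, -0.173 to 0.152 for Ctsk, -0.00156 to 0.231 for Tnfsf11 and -0.0188 to 0.296 for Tnfrsf11b. Probe sets under the filter, such as both for Fasl, limit what the arrays can show.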
